A study of Mus musculus with 15 samples.

Results

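The 10 genes described here encode interferon-induced GTPases, namely the guanylate-binding proteins Gbp2, Gbp3, Gbp4, Gbp5, Gbp6, Gbp7 and Gbp9 and the immunity-related GTPases Igtp, Irgm1 and Iigp1. They are 10 of 45777 features counted by RNA sequencing of mouse striatum, the forebrain region that receives dense dopamine input. The list was chosen by the F1 counts of Gbp3 and Gbp5, which had been seen to be higher in F1 METH mice, so the F1 values of the 10 genes are given as a description without a test. The F2 libraries were not used for that choice, and there each gene was tested.

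The sires of the first generation (F0) were ICR males, an outbred stock, aged 6 weeks, injected under the skin over 21 days with methamphetamine (METH) at 5 mg/kg, or with 10 mL/kg of saline. F1 METH (n = 3) and F1 saline (n = 4) are their sons, and F2 METH (n = 4) and F2 saline (n = 4) are sons of F1 males. All 15 animals are wild-type males of untreated mothers, taken at 7 weeks of age, and the protocol describes dosing of the F0 males alone. The labels tie no animal to a litter or a founder, so sons of 1 sire could stand in 1 group, and p-values measure only the spread between these libraries. Animal numbers in the labels recur between generations, 2 and 9 in the METH groups and 1, 3, 6 and 7 in the saline groups, and the labels do not say whether they mark descent. Library totals ran from 31563806 to 50573906 counts.

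Interferons are cytokines released in response to infection, and they switch on a large set of genes through receptors, Jak kinases and transcription factors. Among the most strongly induced are large GTPases that coat or break the membranes of intracellular microbes and of the vacuoles around them. In uninfected brain these genes are expressed at low levels, with glia and vascular cells among the cells able to induce them.

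The labels name the tissue as striatum and the cell type as neuronal, while the libraries come from whole tissue. Striatal projection neuron genes were high, with Ppp1r1b at 1645 to 2424 CPM in F1 METH and 1336 to 2231 CPM in F1 saline. Markers of other cells were present as well, P2ry12 of microglia at 36.9 to 50.9 CPM in F1 METH and 28.0 to 43.0 CPM in F1 saline. The cortical neuron gene Slc17a7 was uneven, at 31.0, 24.03 and 396 CPM in F1 METH replicates 1, 2 and 3 and at 9.47 to 526 CPM in F1 saline. CPM are counts divided by the scaled library size. In bulk tissue, more cells that express a gene and more RNA of that gene per cell cannot be told apart.

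Gbp5, Gbp7, Gbp3 and Gbp2 lie in that order in a cluster on chromosome 3 (GRCm38), with Gbp5 starting at 142496934 and Gbp2 ending at 142638008. Gbp9, Gbp4 and Gbp6 lie in a second cluster on chromosome 5, between 105076464 and 105295871. Both Irgm1 (48865245 to 48871420) and Igtp (58199556 to 58207592) are on chromosome 11. Promoter windows, 250 bases before to 50 bases after an annotated transcript start, were taken from RefSeq (GRCm38.p6) for 6 of the 10 genes. These were Gbp2, Gbp3, Gbp5, Gbp7, Igtp and Irgm1, and Gbp3 has a pair of starts, which makes 7 windows.

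The windows were searched on both strands for GAAANNGAAA, the core of the interferon-stimulated response element read by interferon regulatory factors. The match was found at a start of each of the 6 genes, in 6 of the 7 windows (85.7%), against 3.44% of all 32851 windows of that length. Only the second Gbp3 start lacked it. The stretches below are shown because they carry these matches. Capitals mark the match, which appears as its reverse complement where it lies on the strand opposite to the gene.
Gbp2 (chr3:142620589-142620628, plus strand): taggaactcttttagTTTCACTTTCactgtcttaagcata
Gbp3 (chr3:142559984-142560029, plus strand): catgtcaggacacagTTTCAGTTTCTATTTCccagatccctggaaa
Gbp5 (chr3:142496754-142496793, plus strand): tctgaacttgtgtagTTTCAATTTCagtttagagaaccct
Gbp7 (chr3:142530268-142530307, plus strand): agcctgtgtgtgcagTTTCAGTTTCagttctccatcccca
Igtp (chr11:58199507-58199546, plus strand): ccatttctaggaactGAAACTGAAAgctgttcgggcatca
Irgm1 (chr11:48871420-48871465, minus strand): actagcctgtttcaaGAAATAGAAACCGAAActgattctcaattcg

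The Gbp3 and Irgm1 stretches each hold a pair of matches that overlap. The matches began 59 bases before the start in Gbp2, 45 and 39 in Gbp3, 53 in Gbp7, 34 in Igtp and 30 and 24 in Irgm1, whereas that of Gbp5 lay 165 bases before it. A second motif, TTCNNNGAA, is the palindromic core of the gamma-activated site, an element of interferon gamma-responsive promoters. It was found in 3 of the 7 windows, those of Gbp5, Gbp7 and Igtp, against 8.3% of all windows, and it overlapped no GAAANNGAAA match in them. A match of letters is a description and not a bound site.

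**Figure D1:**
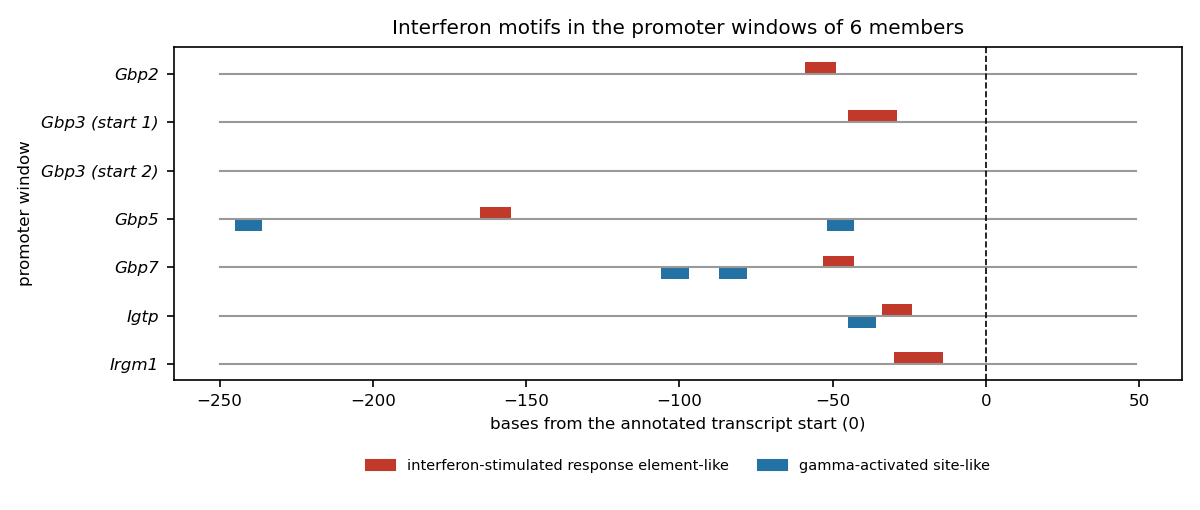
Positions of interferon motif matches in the 7 promoter windows of 6 genes, in bases from the annotated transcript start (dashed line). Red boxes are response element matches and blue boxes are gamma-activated site matches. Except in Gbp5, the red boxes lie within 59 bases before the start.

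Per unit of length the genes were weakly expressed. Averaged over the 15 libraries, Irgm1 had the highest level at 3.93 TPM (the authors' unit, scaled for transcript length and depth), at the 29.5th percentile of genes tested in both generations. Gbp3 had 3.37, Gbp2 2.90, Gbp7 2.74, Gbp5 2.19, Gbp9 2.18, Igtp 2.06 and Gbp4 1.79 TPM. Gbp6 at 0.570 TPM and Iigp1 at 0.407 TPM were the lowest, at percentiles 7.6 and 4.9. All 10 genes passed the filter on low counts in both generations.

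The order of TPM levels was headed by Irgm1 in F1 saline (3.67 ± 0.829, SD, n = 4), F2 METH (4.15 ± 0.445, n = 4) and F2 saline (3.61 ± 0.878, n = 4). In F1 METH, Gbp3 came first at 4.94 ± 1.53 TPM and Irgm1 second at 4.404 ± 0.603 TPM (n = 3), with overlapping ranges. Most neighbours in these orders overlapped in their ranges. In F1 METH the gap lay between Gbp9 (2.54 ± 0.837 TPM) and Iigp1 (0.617 ± 0.614 TPM). In F1 saline, Gbp4, Gbp6 and Iigp1 were each separate from the next, at 1.11 ± 0.353, 0.470 ± 0.0428 and 0.219 ± 0.110 TPM. In F2 METH, Gbp7 and Gbp9, Gbp4 and Gbp6, and Gbp6 and Iigp1 did not overlap, and in F2 saline all neighbours did.

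Sons of METH-treated and saline-treated sires form the contrast on which the list was picked. Of the 10 genes, 9 had a higher mean in F1 METH, with a median log2 fold change of 0.68, while 49.1% of the 18499 genes tested were higher. Much of this came from 1 animal. Gbp3 and Gbp5 were the only members with every METH library above every saline library, 2 of 10, which 3.08% of all genes tested showed, and 0 of 10 had every METH library below, as 2.42% of genes did. Over all genes, edgeR's quasi-likelihood test called 0 at an adjusted p under 0.05 (0%), with 774 at an unadjusted p under 0.05, 4.18% (2.52% higher in METH and 1.66% lower).

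Gbp3, a guanylate-binding protein of the chromosome 3 cluster, was at 8.27, 5.29 and 4.38 CPM in F1 METH replicates 1 to 3. It was at 2.54, 2.63, 2.94 and 3.38 CPM in F1 saline. The groups did not overlap, and replicate 1 was the highest METH library. The log2 fold change was 1.06 (SE 0.24) and remained 0.75 without replicate 1.

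Gbp5, which in mice promotes assembly of the NLRP3 inflammasome, was at 6.40, 4.09 and 2.29 CPM in F1 METH. F1 saline libraries had 2.098, 1.92, 1.34 and 2.03 CPM. The lowest METH library lay just above the highest saline library. The log2 fold change was 1.20 (SE 0.33), and 0.79 without METH replicate 1.

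Gbp4, of the chromosome 5 cluster, had the largest F1 fold change of the 10 and the largest SD within F1 METH, 7.57 CPM. It was at 15.9, 4.04 and 1.84 CPM in F1 METH and at 1.60, 3.14, 1.66 and 2.61 CPM in F1 saline. METH replicate 3 lay inside the saline range. The log2 fold change of 1.69 (SE 0.63) fell to 0.39 without METH replicate 1.

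Iigp1, a gene on chromosome 18 for the effector GTPase that disrupts the vacuole of Toxoplasma, was at 2.87, 0.859 and 0.393 CPM in F1 METH. It was at 0.166, 0.763, 0.499 and 0.528 CPM in F1 saline. METH replicate 1 was high and METH replicate 3 was within the saline range. METH replicate 2, with 33 reads, lay slightly above the highest saline library, with 27 reads. The log2 fold change was 1.48 (SE 0.68), and 0.36 without METH replicate 1. These are few reads, 138 in the F1 METH libraries together and 72 in F1 saline.

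Igtp and Irgm1 are regulatory relatives that hold effector GTPases inactive on the cell's own membranes. Igtp was at 3.74, 1.38 and 1.75 CPM in F1 METH and at 0.911, 0.847, 1.81 and 1.61 CPM in F1 saline, a log2 fold change of 0.82 (SE 0.41). METH replicate 1 alone lay above all saline libraries, and the value without it was 0.27. Irgm1 was at 4.81, 3.57 and 3.99 CPM in F1 METH and at 3.31, 2.66, 4.26 and 3.14 CPM in F1 saline, a log2 fold change of 0.30 (SE 0.21) that was 0.17 without METH replicate 1.

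The 4 remaining members were Gbp7, Gbp2, Gbp9 and Gbp6. Gbp7 averaged 7.25 ± 2.56 CPM in F1 METH and 4.98 ± 0.519 CPM in F1 saline (SD, n = 3 and 4), a log2 fold change of 0.54 (SE 0.22) that was 0.22 without METH replicate 1. Gbp2, which in mice helps to restrict Toxoplasma, averaged 3.22 ± 1.21 CPM in F1 METH and 2.62 ± 0.365 CPM in F1 saline. Gbp9 averaged 6.06 ± 2.16 CPM in F1 METH and 4.87 ± 0.368 CPM in F1 saline. The Gbp2 and Gbp9 log2 fold changes of 0.30 (SE 0.26) and 0.31 (SE 0.22) were -0.048 and -0.016 without METH replicate 1. Gbp6 had a negative value, -0.16 (SE 0.42), which was 0.23 without METH replicate 2, at 1.03, 0.312 and 1.06 CPM in F1 METH and 0.788 to 0.976 CPM in F1 saline.

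**Figure D2:**
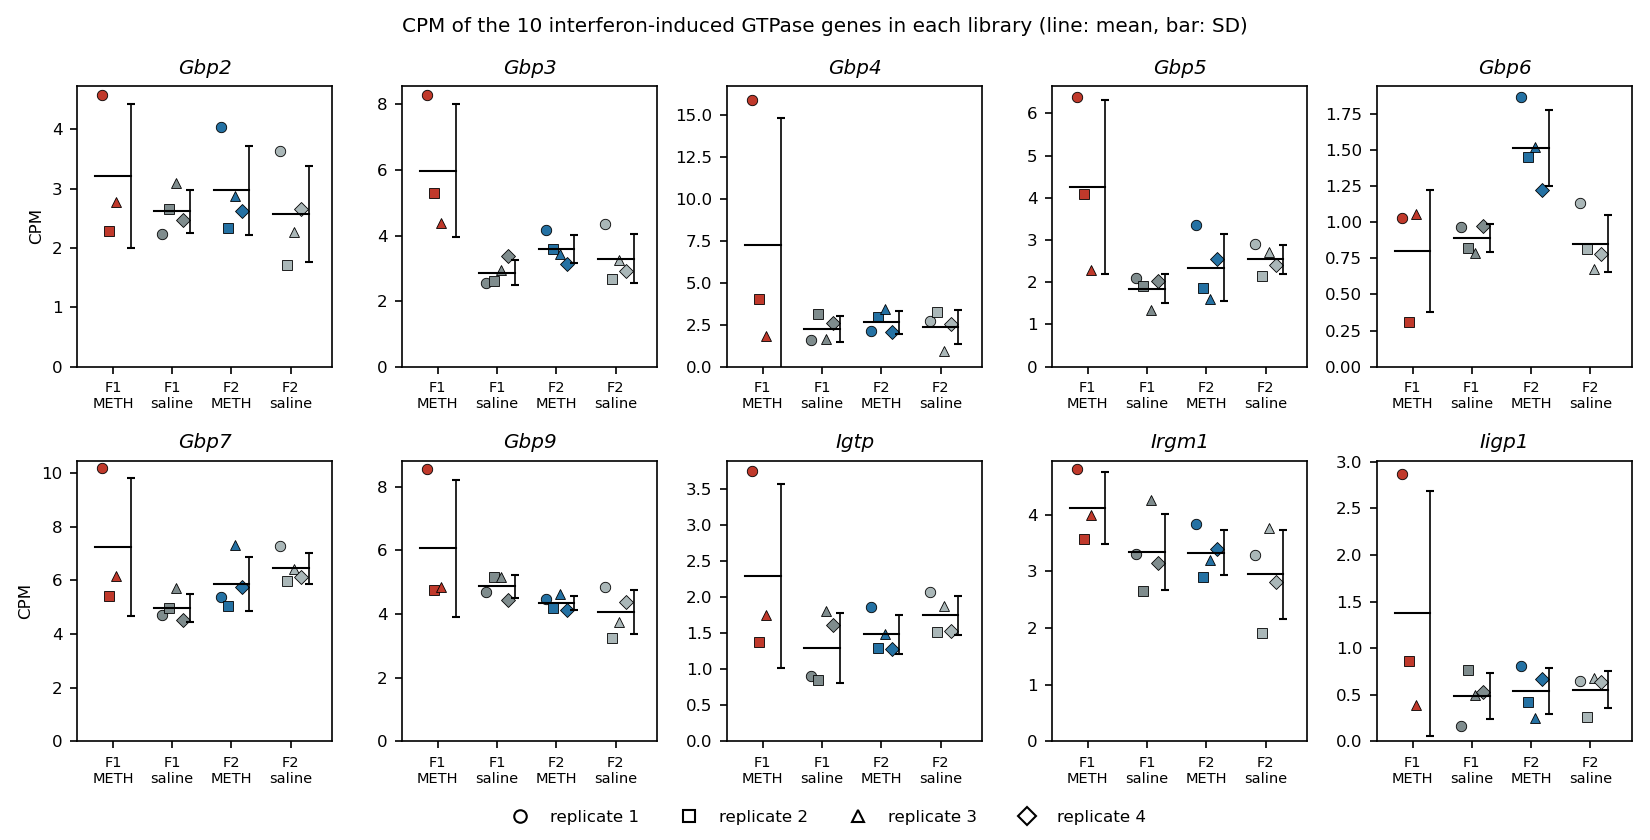
CPM of the 10 genes in each of the 15 libraries, with METH left of saline within each generation. Marker shapes give the replicate number, lines the group mean and bars the SD (the F1 METH bar of Gbp4 runs below 0 and is cut at the axis). The circle of F1 METH replicate 1 stands highest of its generation in every panel but Gbp6, where it is at 1.03 CPM and replicate 3 at 1.06 CPM.

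F1 METH replicate 1 was the highest of the 7 F1 libraries for 9 of the 10 genes, against 10.9% of all genes tested. In that library 10 of 10 members lay above every saline library, which 17.5% of all genes did. In replicate 2 the count was 4 of 10 (19.4% of all genes), and in replicate 3 it was 4 of 10 (23.4% of all genes). The median ratio of the 10 genes to their saline mean was 2.46 in replicate 1, 1.08 in replicate 2 and 1.19 in replicate 3.

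Without replicate 1, 7 of 10 genes had a log2 fold change above 0, with a median of 0.24. Replicate 1 had the smallest total of the F1 libraries, 32805918 counts, against 33454786 and 38514778 in the other F1 METH libraries and 35044343 to 37659436 in F1 saline. The part of depth in these values was not tested.

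**Figure D3:**
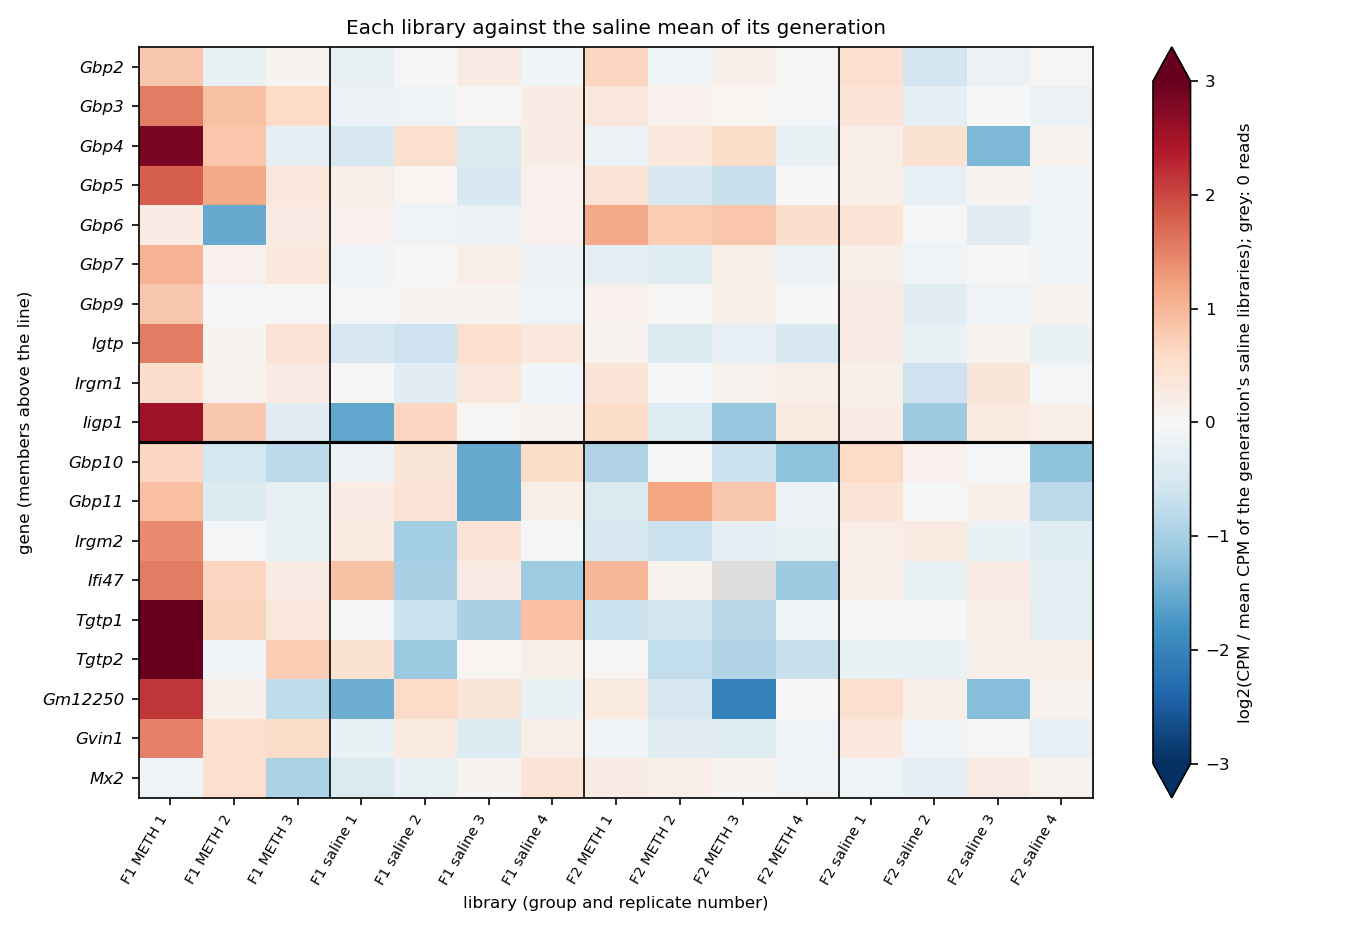
Each library's CPM relative to the mean CPM of the saline libraries of its generation, on a log2 scale, for the 10 members (above the line) and 9 further interferon GTPase genes. Colours beyond 3 are drawn at the end of the scale and grey marks 0 reads. The first column, F1 METH replicate 1, is red in every row except Mx2, where it is at 1.53 CPM and the saline libraries at 1.24 to 2.22 CPM.

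The grandsons gave a comparison that the choice of genes had not used. None of the 10 genes passed edgeR's quasi-likelihood test in F2 (adjusted p = 0.960 to 0.997), in a fit that called 0 of 18093 genes (0%). At an unadjusted p under 0.05 there was 1 member of 10, Gbp6, beside 863 of all genes, 4.77% (2.11% higher in METH and 2.66% lower). Of the 10 genes, 6 had a log2 fold change above 0, with a median of 0.11, against 49.5% of all genes tested.

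Gbp6, the member that was lowest in its F1 fold change, was at 1.86, 1.45, 1.52 and 1.22 CPM in F2 METH. It was at 1.13, 0.814, 0.677 and 0.781 CPM in F2 saline. Every METH library lay above every saline library, 1 of 10 members, which 1.34% of all genes showed. The means were 1.51 ± 0.265 CPM in F2 METH and 0.851 ± 0.197 CPM in F2 saline (SD, n = 4 each). The log2 fold change was 0.83 (SE 0.24), with an unadjusted p = 0.00602 and an adjusted p = 0.960 in edgeR's quasi-likelihood test. The two-sided exact permutation test gave p = 0.0286, the smallest that 4 against 4 libraries allow.

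The Gbp6 level itself is uncertain, because Gbp6 shares much of its sequence with the neighbouring Gbp10. Of the 75-base windows of its longest coding transcript, 51.7% also occur in Gbp10. A further 1 annotated gene, Gm43302, holds 86.0% of the windows. Its span overlaps those of Gbp6 (22994 bases) and Gbp10 (23835 bases) on the same strand, and the count tables have 0 entries for it. Gbp10 was at 0.341, 0.639, 0.411 and 0.278 CPM in F2 METH and at 0.971, 0.698, 0.617 and 0.279 CPM in F2 saline, opposite to Gbp6 in its means. Summed, the pair had 2.205, 2.09, 1.93 and 1.503 CPM in F2 METH and 2.103, 1.51, 1.29 and 1.06 CPM in F2 saline. The sums overlapped (two-sided exact permutation p = 0.200, a sum chosen after the data were seen). The reads behind Gbp6 were 231 in F2 METH and 132 in F2 saline.

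The METH and saline libraries of Gbp3 and Gbp5, which were separate in F1, overlapped in F2. Gbp3 was at 4.17, 3.60, 3.45 and 3.15 CPM in F2 METH and 4.34, 2.67, 3.24 and 2.93 CPM in F2 saline. Its log2 fold change was 0.12 (SE 0.18, edgeR adjusted p = 0.971). Gbp5 was at 3.36, 1.85, 1.61 and 2.56 CPM in F2 METH and 2.91, 2.15, 2.71 and 2.40 CPM in F2 saline, with a log2 fold change of -0.12 (SE 0.24, edgeR adjusted p = 0.986).

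The other 7 genes had log2 fold changes between -0.24 (Igtp, SE 0.21) and 0.21 (Gbp2, SE 0.25), each smaller than its SE or near it. Gbp4 had 0.16 (SE 0.34), Irgm1 0.17 (SE 0.21), Gbp9 0.098 (SE 0.15), Iigp1 -0.048 (SE 0.42) and Gbp7 -0.14 (SE 0.14). Igtp averaged 1.48 ± 0.271 CPM in F2 METH and 1.75 ± 0.274 CPM in F2 saline. The METH and saline groups of all 7 genes overlapped. The highest F2 library was METH replicate 1 for 5 of the 10 genes (10.9% of all genes tested) and saline replicate 1 for 3 (14.9%). Among 8 further interferon GTPase genes tested in F2, METH replicate 1 was highest for 0 and saline replicate 1 for 3. METH replicate 1 carries animal number 2 in F2 as in F1, and a family link between the generations was not tested. The difference of the METH effect between generations was not tested, since it would contain the contrast on which the genes were picked.

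**Figure D4:**
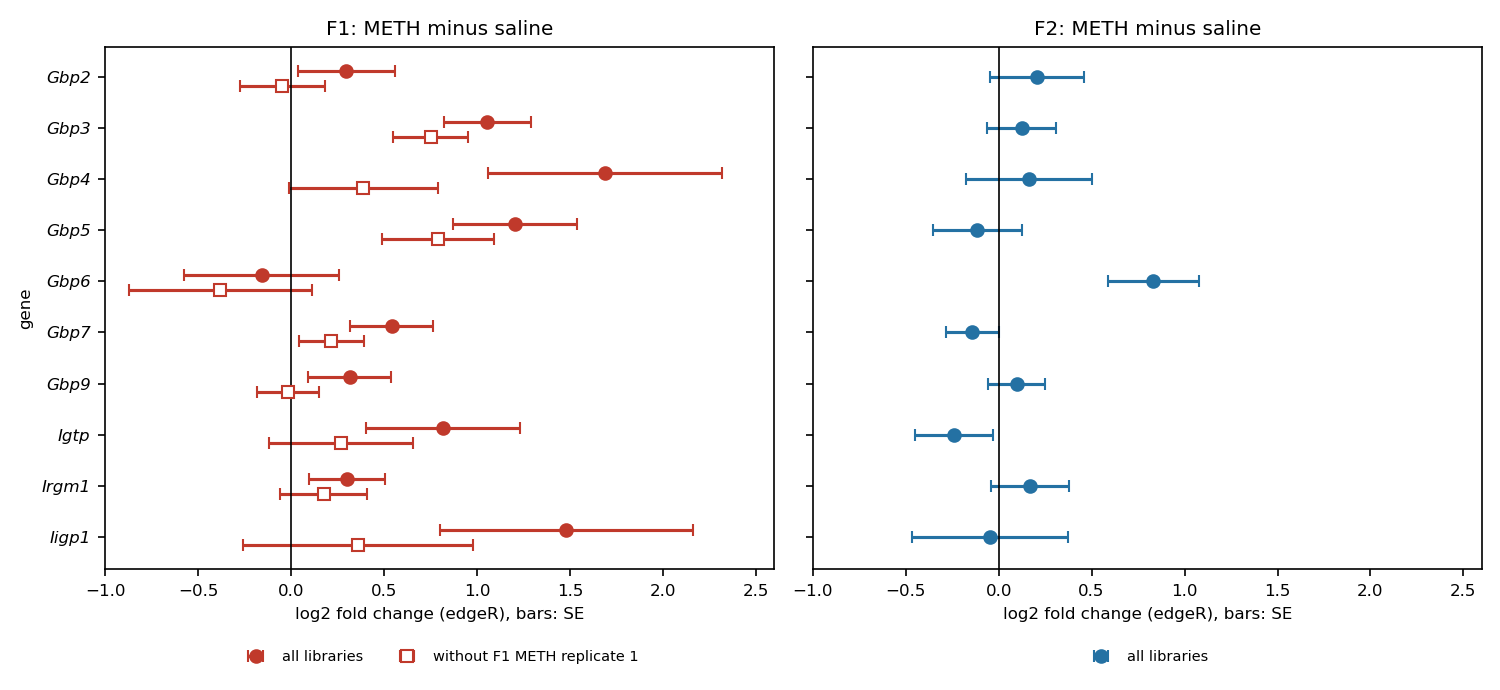
Log2 fold changes, METH minus saline, of the 10 genes in F1 (left) and F2 (right), with bars for the SE of the edgeR fit. Open squares leave out F1 METH replicate 1: Gbp4 is then at 0.39 (1.69 with all libraries), Gbp3 at 0.75 (1.06) and Gbp5 at 0.79 (1.20). In F2, Gbp6 at 0.83 stands apart from the other members.

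Of 12 further interferon GTPase genes, 9 were tested in F1, of which 7 were higher in METH, with a median log2 fold change of 0.90. METH replicate 1 was the highest F1 library for 8 of these 9. The T cell-specific GTPases, first found in T cells, had the largest F1 fold changes among them, 2.79 (SE 0.94) for Tgtp1 and 2.96 (SE 0.98) for Tgtp2. Tgtp1 was at 5.65, 0.495 and 0.393 CPM in F1 METH and at 0.304, 0.198, 0.158 and 0.580 CPM in F1 saline. Tgtp2 was at 6.40, 0.286 and 0.513 CPM in F1 METH and at 0.414, 0.141, 0.315 and 0.343 CPM in F1 saline. Both were highest in METH replicate 1, and Tgtp2 in METH replicate 3 also lay slightly above the saline libraries. Since 84.8% of the 75-base windows of Tgtp1 occur in Tgtp2, the pair cannot be read separately.

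The giant GTPase gene Gvin1, with 98.3% of its windows shared with other genes, had log2 fold changes of 0.94 (SE 0.31) in F1 and -0.22 (SE 0.19) in F2. Irgm2, the third regulatory relative, was at 4.15, 1.48 and 1.33 CPM in F1 METH and 0.763 to 2.05 CPM in F1 saline. Gbp8 had 17 reads in F1 METH replicate 1 and 0 in each of the other 6 F1 libraries. Ifi47 and Gm12250 had F1 log2 fold changes of 0.90 (SE 0.56) and 1.01 (SE 0.71), and Gbp11, Gbp10 and Mx2 had 0.20 (SE 0.47), -0.094 (SE 0.55) and -0.073 (SE 0.35). Mx2 belongs to the Mx GTPases, which act against viruses. Its relative Mx1, Gbp2b and Gbp8 were too low to be tested, as was Ifi47 in F2.

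In F2, 8 of the 12 were tested, and 0 passed edgeR's test (smallest adjusted p = 0.960). Of these, 2 were higher in METH and 6 lower, with a median log2 fold change of -0.34. Tgtp1 and Tgtp2 had -0.50 (SE 0.29) and -0.52 (SE 0.33), Irgm2 -0.39 (SE 0.21), Gbp10 -0.60 (SE 0.42) and Gm12250 -0.29 (SE 0.51). The higher pair was Gbp11 at 0.50 (SE 0.36) and Mx2 at 0.10 (SE 0.20).

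Of the interferons themselves, 5 genes were examined. These were Ifng, Ifnb1, Ifna2, Ifna4 and Ifnl2, named after their values were seen, and they had 0 reads in all 15 libraries. Of 6 receptor genes tested, 4 were higher in F1 METH, with a median log2 fold change of 0.043, and 3 were higher in F2 METH, with a median of -0.014. In this list and those below, up to 4 genes are named for the smallest F2 p, so their F2 values partly reflect that choice. In F2 the receptor subunits Ifngr2, Ifnar1, Il10rb and Ifnlr1 had -0.089 (SE 0.093), 0.064 (SE 0.074), 0.11 (SE 0.16) and -0.19 (SE 0.52).

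Of 16 signalling and transcription factor genes tested in F1, 11 were higher in METH, with a median log2 fold change of 0.15. Of 15 in F2, 8 were higher, with a median of 0.0037. Jak2, a receptor kinase, had 0.24 (SE 0.12) in F1 and -0.16 (SE 0.11) in F2. Irf1, a transcription factor induced by interferon gamma, had 0.47 (SE 0.19) in F1 and 0.23 (SE 0.18) in F2. Irf8 had 0.20 (SE 0.13) in F1 and -0.22 (SE 0.20) in F2, and Irf9, a DNA-binding factor of the type I interferon response, 0.36 (SE 0.18) in F1 and -0.14 (SE 0.14) in F2. Nlrc5, which activates class I antigen presentation genes and was chosen after its values were seen, was at 1.84, 0.703 and 0.785 CPM in F1 METH and 0.343 to 0.791 CPM in F1 saline.

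Other interferon-stimulated genes were higher in F1 METH in 28 of 33, with a median log2 fold change of 0.24, and in F2 METH in 10 of 31, with a median of -0.082. METH replicate 1 was the highest F1 library for 20 of the 33 (10.9% of all genes tested). Saline replicate 1 was the highest F2 library for 14 of the 31 (14.9% of all genes tested). The median ratio to the saline mean was 1.43, 1.13 and 1.12 in F1 METH replicates 1 to 3. Ifih1, a sensor of viral RNA, had 0.62 (SE 0.22) in F1 and -0.67 (SE 0.24) in F2. Parp9, Parp14 and Ifi35 had 0.45 (SE 0.19), 0.42 (SE 0.19) and 0.45 (SE 0.24) in F1, and -0.43 (SE 0.18), -0.33 (SE 0.16) and -0.35 (SE 0.25) in F2. Ifih1 and these genes were named for the smallest F2 p of the list, whose F2 log2 fold changes ran from -0.71 to 0.65.

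Antigen presentation genes were higher in F1 METH in 13 of 19, with a median log2 fold change of 0.27, and in F2 METH in 4 of 16, with a median of -0.11. The median ratio to saline was 1.63, 1.05 and 1.00 in F1 METH replicates 1 to 3. METH replicate 1 was the highest F1 library for 12 of the 19, and saline replicate 1 the highest F2 library for 6 of the 16. Summed over the 19 genes, F2 saline replicate 1 had 163 CPM. The other F2 saline libraries had 110 to 134 CPM and F2 METH libraries 105 to 123 CPM. H2-D1 and H2-T23, class I heavy chain genes with close paralogs, had 0.16 (SE 0.23) and 0.43 (SE 0.33) in F1 and -0.52 (SE 0.20) and -0.48 (SE 0.32) in F2. B2m, their light chain, had 0.43 (SE 0.20) in F1 and -0.25 (SE 0.17) in F2, and the immunoproteasome subunit Psmb10 -0.22 (SE 0.31) and -0.32 (SE 0.16).

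Of 20 partners of the GTPases in autophagy and inflammasomes tested, 4 were higher in F1 METH, with a median log2 fold change of -0.069, and of 19 in F2, 6 were higher, with a median of -0.039. In F2, the inflammasome adaptor Pycard had -0.60 (SE 0.22), and the autophagy genes Atg3, Sqstm1 and Atg5 had -0.14 (SE 0.076), -0.11 (SE 0.061) and -0.14 (SE 0.089). edgeR's test passed 0 genes of any of these lists in F2. At an unadjusted p under 0.05 there were 2 of 31 interferon-stimulated, 1 of 16 antigen presentation and 1 of 19 partner genes, shares close to the 4.77% of all genes. F1 and F2 share no library, and the F1 counts of these lists rest on the libraries in which the members were picked.

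**Figure D5:**
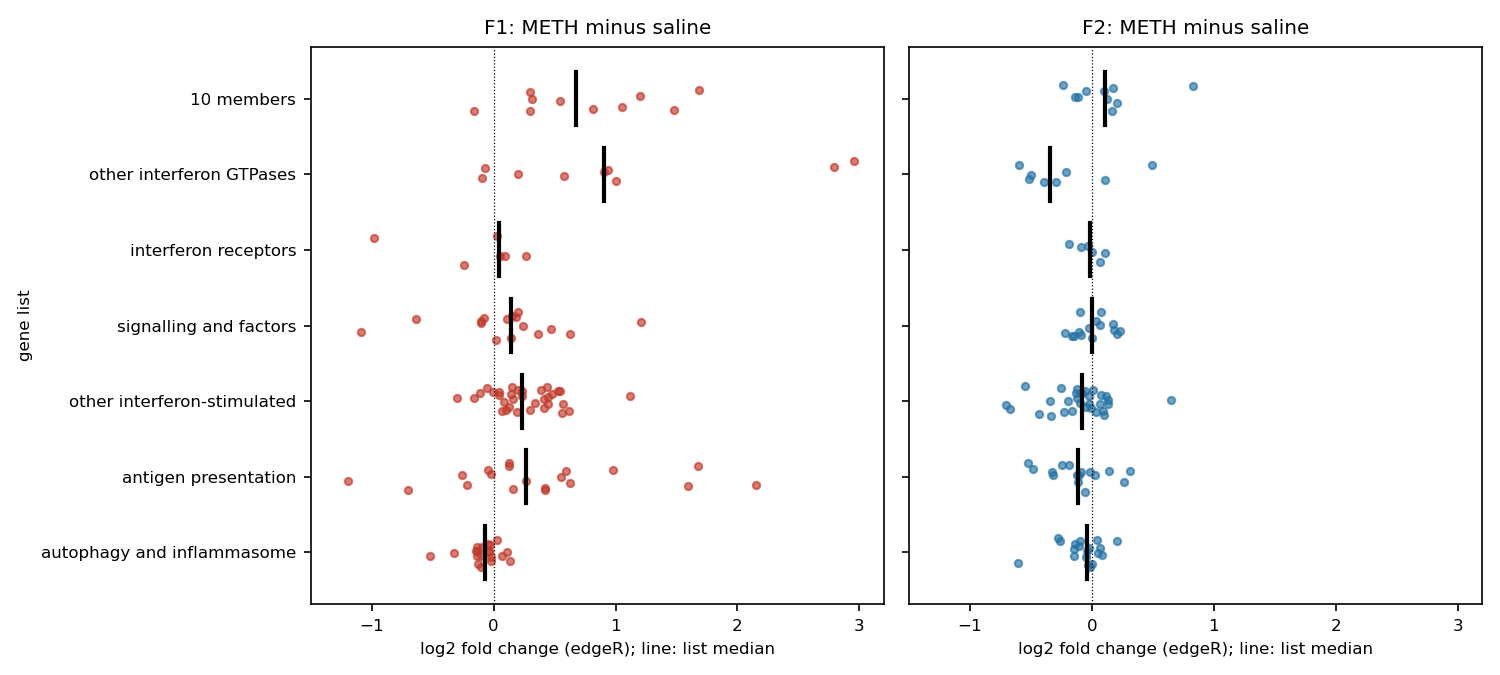
Log2 fold changes, METH minus saline, of every tested gene in 7 interferon pathway lists in F1 (left) and F2 (right), with a black line at each list median. The F1 medians of the members and the other interferon GTPases are 0.68 and 0.90, and those in F2 are 0.11 and -0.34.

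Some markers of other cells also differed between the F1 groups. Summed over 14 endothelial markers, F1 METH libraries had 419 to 457 CPM and F1 saline libraries 357 to 390 CPM. Of the 14, 11 were higher in METH. The endothelial gene Cldn5 did not show this difference. It averaged 29.49 CPM in F1 METH and 29.64 CPM in F1 saline, with overlapping ranges. Summed over 9 pericyte and smooth muscle markers, F1 METH libraries had 258 to 278 CPM and F1 saline libraries 210 to 236 CPM. Microglia markers gave 499.7 to 697 CPM in F1 METH and 468 to 564 CPM in F1 saline, with 15 of 16 highest in METH replicate 3. All 9 myelin and oligodendrocyte markers and 8 of 10 astrocyte markers also had a log2 fold change above 0, with medians of 0.27 and 0.18. Of 14 cortical excitatory neuron markers 13 were below 0 (median -0.54), as were 9 of 10 immediate early genes (median -0.46), while 11 of 12 spiny projection neuron markers were above 0 (median 0.13). Cortical sums were 349.7, 321 and 957 CPM in F1 METH replicates 1 to 3 and 339.5 to 1303 CPM in F1 saline. The part of pericyte, oligodendrocyte, astrocyte, projection neuron and immediate early genes in the F1 values was not tested. With the mean of the endothelial markers as a covariate the median log2 fold change of the 10 genes in F1 was 1.07, with that of microglia 0.75 and with that of cortical neurons 0.66. With the endothelial covariate the SE rose from 0.24 to 0.41 for Gbp3, 0.63 to 1.04 for Gbp4 and 0.33 to 0.58 for Gbp5. Since the endothelial sums of the F1 groups did not overlap, that fit cannot tell endothelial content from lineage.

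T and NK cells release interferon gamma. The T cell gene Cd3e had 0 reads in all 15 libraries. Cd4 made up most of the sum over the 15 T and NK cell genes, which ran from 73.8 to 135 CPM in F1 METH and from 60.6 to 124 CPM in F1 saline. Of the 13 such genes other than Cd4 and Lck, 11 were at 0 reads in F1 METH replicate 1. The number was 10 and 9 in METH replicates 2 and 3 and 10 to 12 in F1 saline. The 13 together had 22 reads in replicate 1, against 24 and 114 in the other METH libraries and 7 to 109 in F1 saline. Trbc2 gave 100 of the 114 and 88 of the 109 reads. In replicate 1, Nkg7 had 6 reads, against 0 in the other F1 libraries. Trac was at 0.499 CPM there, 0.211 to 0.443 CPM in the other METH libraries and 0.198 to 0.422 CPM in F1 saline. The part of T and NK cells was not tested. Monocyte, border macrophage and granulocyte markers summed to 8.17 to 10.9 CPM in F1 METH and 8.36 to 10.3 CPM in F1 saline.

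In F2, all 16 microglia and all 10 astrocyte markers had a log2 fold change below 0. Of all genes tested, 49.5% were above 0. Saline replicate 1 was the highest F2 library for 13 of the 16 and 6 of the 10, against 14.9% of all genes tested. It was also highest for all 9 myelin and oligodendrocyte markers. The microglia markers had sums of 499 to 580 CPM in F2 METH and 468 to 728 CPM in F2 saline. Endothelial sums were 278 to 330 CPM in F2 METH and 278 to 356 CPM in F2 saline. With microglia or endothelial markers as a covariate, the F2 median of the 10 genes was 0.092 or 0.18.

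The 10 genes also varied together between animals of the same group. After removal of the 4 group means, the median Pearson r over the 45 pairs of members was 0.52 across the 15 libraries. Of the pairs, 25 had r above 0.5 and 1 had r below 0. Much of this again came from F1 METH, where deviations from the mean of 3 libraries are tied to each other. Over the 12 libraries outside F1 METH, a set chosen after the data were seen, the median r was 0.36, with 11 pairs above 0.5 and 9 below 0.

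Gbp2 and Gbp3 followed the rest most closely, with a median r of 0.67 and 0.66 to the other members over 15 libraries. Gbp6 followed least over the 15 libraries, at 0.37. It was at -0.0043 once the pair of libraries with the largest deviations, F1 METH replicates 1 and 2, was left out. That value keeps F1 METH replicate 3 centred on a mean that includes the pair. Over the 12 libraries outside F1 METH, r of Gbp6 with the other members ran from -0.066 (Iigp1) to 0.69 (Gbp3). There, r of Gbp4 ran from -0.75 (Irgm1) to 0.34 (Gbp6). These correlations share library depth and dissection, and are given without a test.

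Outside the list, the genes whose group-centred levels were most like the mean of the 10 were H2-Q1, Zfp30, Fam169b, Mt3, H2-Q4, Tgtp2, Lgals3bp and Slc2a4. Their Pearson r over 15 libraries ran from 0.91 for H2-Q1, a class I antigen presentation gene, to 0.80 for Slc2a4, which encodes an insulin-responsive glucose transporter. The 99th percentile of 14439 genes was 0.61. Over the 12 libraries outside F1 METH, r was 0.78 for H2-Q1, 0.76 for the zinc finger gene Zfp30, 0.79 for Fam169b, 0.68 for the metallothionein Mt3, 0.54 for H2-Q4, 0.14 for Tgtp2, 0.73 for Lgals3bp and 0.74 for Slc2a4, where the 99th percentile of all genes was 0.72. The named genes were chosen as the highest of the 14439 over the 15 libraries. Over the 12, Mt3, H2-Q4 and Tgtp2 lay below the 99th percentile and the others at 0.73 to 0.79. With so few libraries, these values are given as a description without a test.

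Of the interferon lists, antigen presentation followed the mean of the 10 with r = 0.90 over 15 libraries and 0.83 over the 12. Other interferon-stimulated genes had 0.77 and 0.94, and the other interferon GTPases 0.79 and 0.29. Interferon receptors had 0.19 and 0.33, signalling genes 0.31 and 0.28, microglia markers -0.15 and 0.21, and endothelial markers 0.12 and 0.45. Over the 12 libraries, pericyte and smooth muscle markers reached 0.64, myelin and oligodendrocyte markers 0.60 and immediate early genes -0.60.

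Reads of some members could be divided between neighbours. The annotated spans of Gbp4, Gbp8 and Gbp9 overlap on the same strand, as do those of Igtp and Irgm2. Few 75-base windows are shared with other genes by Gbp2 (0.983%), Gbp3 (2.68%), Gbp4 (5.35%), Gbp9 (4.32%), Igtp (8.37%) and Gbp7 (11.4%). Gbp5 shares 0.0671%, and Irgm1 and Iigp1 share 0.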

How the data were processed

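Striatum RNA of 15 mice was sequenced. Build mm10 and the tools HISAT2 2.1.0, StringTie 2.1.3b, Trimmomatic and bcl2fastq 2.20.0 are named, without role or order, in the submitters' processing notes. Their settings, and whether counting used strand, were not given in those notes. Each generation has its own deposited table of 45777 features, with columns of whole-number counts, TPM and FPKM by the file headers. Counts were taken as raw, TPM were the authors' values, and the deposited FPKM were not used for any result.

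Groups came from sample titles. The 10 members, the gene lists and the tests were chosen with earlier results of these data known. Counts were fitted with edgeR 4.0.16 in R 4.3.3 (glmQLFit and glmQLFTest, TMM, genes kept by filterByExpr at min.count 10, p adjusted by Benjamini-Hochberg with a threshold of 0.05), each generation on its own table and over all genes. Fold changes are METH minus saline. SE is the absolute log2 fold change divided by the square root of F. Likeness used log2 CPM (prior count 2) centred on the 4 group means. Alternatives used DESeq2 1.42.0 and limma 3.58.1. The scripts were tested on simulated data, where log2 fold changes from edgeR and limma-voom followed the planted ones and DESeq2 made more false calls. The limit on false calls that the test enforces was set after these were seen and leaves DESeq2 out. The test set no condition on the share of planted changes that were called, and that share is not given here.

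Named were all members, all 12 further interferon GTPases, up to 4 genes of each other interferon list with the smallest F2 p and the 8 genes most like the members' mean. Promoter windows are from RefSeq (GRCm38.p6), transcripts and overlaps from GENCODE M21 (GRCm38). Of 21 within-group pairs of libraries, 0 agreed within sampling noise. Gene levels are subject to unstated handling of reads that match several genes. Low counts limit precision: Iigp1 and Gbp6 rest on 72 to 231 reads per group.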

Additional observations from a re-analysis of the deposited data

Results flagged for a closer look

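Of 57 checks, in which each of 19 interferon GTPase genes was screened in each of the 3 groups of 4 libraries, 1 library stood far from the rest of its group. Iigp1 was at 0.262 CPM in F2 saline replicate 2, against 0.642 to 0.677 CPM in the other F2 saline libraries. Chance flags about 1 in 20 such groups. F1 METH, with 3 libraries, was not screened.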

How the results depend on the processing

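edgeR's main test called 0 genes in each generation. In F1, DESeq2's Wald test called 11 genes, limma-voom 3, 1 fit of all 15 libraries 1 and limma-trend on log2(TPM + 1) and log2(TPM + 0.1) 1 each, and leaving out 1 library gave 0 to 2 (1 without METH replicate 1 or saline replicate 1, 2 without saline replicate 2). In F2, DESeq2's Wald test called 7, limma-voom 1 and leaving out 1 library gave 0 to 1 (1 without METH replicate 1 or saline replicate 1, 3 or 4). The other settings gave 0, among them an adjusted p under 0.1. DESeq2 made more false calls than edgeR on simulated data. None of the 10 genes passed in F2 under any setting (smallest adjusted p = 0.472 and largest 0.999997 for Gbp6, the smallest without saline replicate 4).

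The median and the count over the 10 genes were summaries added after the data were seen. Leaving out 1 library gave an F1 median of 0.24 (without METH replicate 1) to 0.90 and a count of 7 to 10 genes above 0; in F2 the median was 0.0099 to 0.21 and the count 6 to 8.

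In F2, members near 0 changed sign. Gbp4 was -0.11 without saline replicate 3, in a range of -0.11 to 0.36 with 1 library left out. Gbp5 was 0.0063 with the microglia covariate, 0.027 with the endothelial covariate and -0.34 to 0.023 with 1 library left out. Iigp1 was 0.0085 and 0.019 on log2(TPM + 1) and log2(TPM + 0.1), 0.039 and 0.090 with the microglia and endothelial covariates, and -0.31 to 0.17 with 1 library left out. The cause was not tested.

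Same-numbered METH and saline libraries did not all deviate together (r = -0.035, 0.059 and 0.40 in F1; -0.062 to 0.039 in F2), so the number is not taken as a pairing. With it as a replicate block 0 genes were called in F1 and in F2, and the medians were 0.67 and 0.13.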
